A study of Mus musculus with 6 samples.

Results

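The 10 circadian clock genes Arntl, Clock, Npas2, Per1, Per2, Per3, Cry1, Cry2, Nr1d1 and Dbp were read on the expression arrays of 3 normal livers and 3 liver tumors of C3H mice. They were picked by name alone, as every gene probe whose name in the array design, or whose current symbol, was one of these 10, which gave 13 of 55681 gene probes and 10 of 34741 gene names. Per1, Cry2 and Dbp had 2 probes each and the others 1. All tissues came from male C3H/HeN mice of 74 to 75 weeks, a strain known for spontaneous liver tumors, which belonged to an untreated control group on CA-1 standard chow. The tumors all carried a Ha-ras mutation, and the normal livers were the comparison group. Each array held the Cy3-labelled RNA of 1 tissue, and the sources used here do not say whether a normal liver and a tumor shared an animal. The numbers 1 to 3 name the tissues of each group and were not read as pairs. The hour of sampling, the light schedule and the feeding state at sampling are not given in the sources used here. Clock RNA can change manyfold over a day, so the part of the sampling hour in every value that follows was not tested.

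The mammalian clock is a feedback loop of transcription. ARNTL (BMAL1) pairs with CLOCK or NPAS2 and activates genes that hold E-boxes, among them the Per and Cry genes, whose proteins then repress that pair. In a further loop the nuclear receptors NR1D1 and NR1D2 (REV-ERB) repress and the ROR receptors activate Arntl through a shared element, and the PAR bZIP factors DBP, TEF and HLF compete with the repressor NFIL3 at D-boxes. In liver, where the clock also follows feeding, Dbp is known for one of the widest daily swings of any transcript, and Arntl peaks at a roughly opposite time of day to Dbp and the Per genes.

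The sequences that this loop reads were looked up at the start sites of the clock genes. RefSeq windows of GRCm38.p6, from 250 bases before to 50 bases after a start, were found for 9 of the 10 genes, 13 windows in all, and not for Per2. They were searched on both strands for the E-box CACGTG, the E-prime box CACGTT (which shares all letters but the last with the E-box), the D-box in its forms TTATGTAA and TTACGTAA, the ROR element (AGGTCA preceded by AANT) and the cyclic AMP element TGACGTCA. Stretches upstream of the annotated gene are printed for Cry1, Nr1d1 and Per3, and short sites for Per1, Cry2 and Arntl, because each holds a match. Capitals mark the match, and AACGTG is the E-prime box read on the opposite strand.
Per1, E-box, chr11:69098773-69098798, plus strand: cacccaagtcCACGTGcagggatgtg
Cry1, E-prime box and E-box, chr10:85185055-85185304, minus strand: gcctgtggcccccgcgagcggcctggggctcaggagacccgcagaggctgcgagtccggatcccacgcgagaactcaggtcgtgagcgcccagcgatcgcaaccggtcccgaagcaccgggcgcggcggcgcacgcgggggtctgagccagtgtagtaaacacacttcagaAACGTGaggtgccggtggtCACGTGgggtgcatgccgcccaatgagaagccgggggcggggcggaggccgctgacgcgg
Cry2, E-prime box, chr2:92434220-92434245, minus strand: acatggtgggAACGTGagggggcgga
Nr1d1, E-prime box, chr11:98775378-98775627, minus strand: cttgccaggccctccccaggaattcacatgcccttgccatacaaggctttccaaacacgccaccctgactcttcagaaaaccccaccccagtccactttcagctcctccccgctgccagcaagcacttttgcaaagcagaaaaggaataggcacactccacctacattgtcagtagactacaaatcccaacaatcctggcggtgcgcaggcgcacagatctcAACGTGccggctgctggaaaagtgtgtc
Per3, D-box at 2 places, chr4:151044708-151044915, minus strand: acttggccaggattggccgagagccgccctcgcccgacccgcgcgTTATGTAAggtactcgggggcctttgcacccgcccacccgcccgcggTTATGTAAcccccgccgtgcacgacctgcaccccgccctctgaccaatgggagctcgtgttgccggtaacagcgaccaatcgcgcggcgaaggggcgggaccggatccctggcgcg
Arntl, ROR element, chr7:113207528-113207557, plus strand: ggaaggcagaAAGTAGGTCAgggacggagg

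Counted from the listed start, the E-box of Per1 began at -166 and that of Cry1 at -60, while the ROR element of Arntl began at 27. Of all 32851 RefSeq windows of this length, 7.15% held the E-box, 4.68% the E-prime box, 0.938% the first form of the D-box, 0.119% the second form, 0.219% the ROR element and 1.79% the cyclic AMP element. No match was found in the windows of Clock, Npas2 and Dbp, which says only that these letters are not in those 300 bases. Binding was not measured, and a match is a description of the letters.

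All expression values are the background-subtracted signal of a probe divided by the 75th percentile of its array, so a value of 1 equals that percentile. Values were compared between tissues for a probe. The summed levels of marker lists, given below, add different probes, so their brightest probes weigh most. A probe was tested if all 3 arrays of 1 group or of both read it well above background, which held for 9 of the 13 clock probes and for 7 of the 10 genes. Npas2, Per3 and Cry1 were not tested. Differences are log2 fold changes of tumor over normal liver with their standard error (SE, n = 3 in each group), from limma fitted over 24898 probes with Benjamini-Hochberg adjustment, and a gene with an adjusted p under 0.05 is said to be called. A gene was represented by its brightest probe.

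The arrays were alike in depth of signal, except that normal liver 1 was dimmer. Between 44.7% (normal liver 1) and 48.9% of gene spots were well above background, and 0 spots were saturated. The 75th percentile was 124 signal units for normal liver 1 and lay between 170 and 183 for the others. The log2 values of the tested probes correlated at 0.989 to 0.992 between normal livers, 0.980 to 0.990 between tumors and 0.914 to 0.950 between the groups. All normal livers were on 1 slide and all tumors on another, with a local background of 42.0 to 45.0 and 22.0 to 23.0 units, so the slide and the tissue group cannot be told apart. Liver RNA defined both groups, with Alb at 1923 to 2449 in the normal livers and 2123 to 2221 in the tumors. In bulk tissue, fewer cells of a type and less RNA per cell cannot be told apart either.

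Of the 7 clock genes tested, 1 was called lower in tumors and 0 were called higher by limma. Over all 18544 genes tested, 34.2% were called, 21.0% lower and 13.1% higher, and of all 24898 probes 33.1% were called, so the share of clock genes called was below that background. At an unadjusted p under 0.05, limma gave 2 genes lower (Clock and Cry2, against 29.1% of all genes) and 2 higher (Per1 and Dbp, against 16.5%), while the two-group test of the methods on linear values, also unadjusted, gave 2 lower (27.2% of all genes) and 0 higher (14.6%) in its unpaired form and 1 lower and 0 higher when paired by tissue number, the form that the statistics section names. The criteria of the methods, a 2-fold change and an expression above 1 with the unpaired form, gave 0 clock genes and 9.15% of all genes. The median log2 fold change of the 7 genes was 0.16, against -0.13 over all genes. The groups did not overlap for 2 of the 7 (Clock and Cry2, both lower), where 51.8% of all genes had groups apart, 33.5% with the tumors lower and 18.3% with the tumors higher. The spread inside each group was wide: the median standard deviation within groups was 0.82 on the log2 scale for the 7 clock genes and 0.19 for all tested genes.

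**Figure D1:**
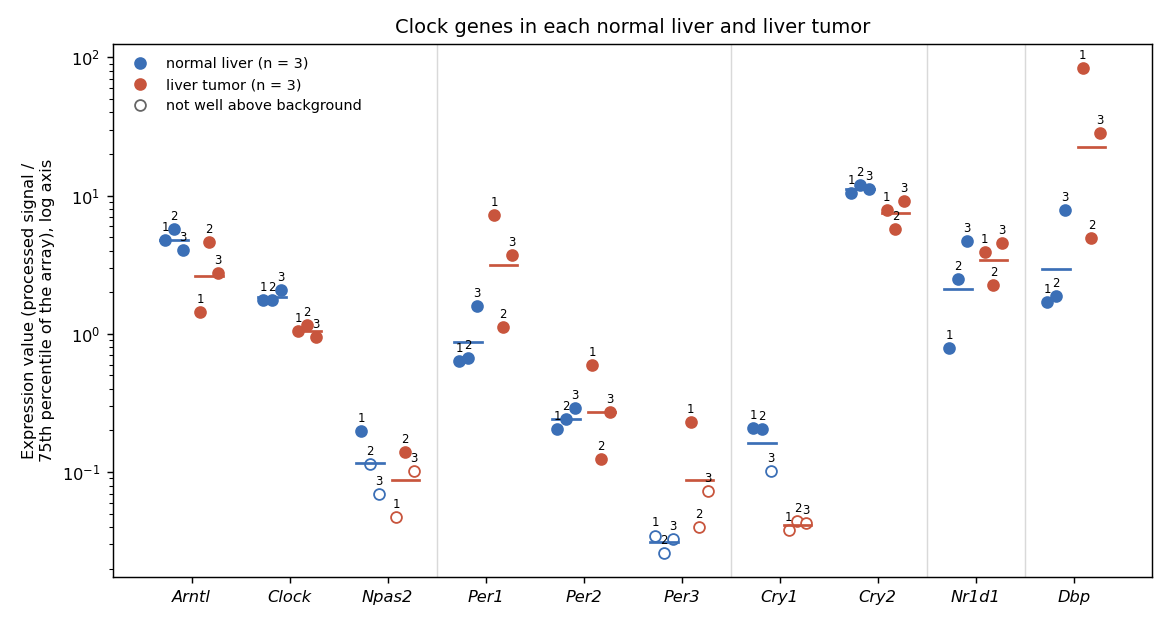
Expression value of each clock gene (brightest probe, log axis) in every normal liver (blue) and liver tumor (red), numbered by tissue; horizontal lines are group means of log2 values and open points are not well above background. Clock lies lower in all 3 tumors, whereas Dbp runs from 4.92 to 83.5 among the tumors and from 1.69 to 7.91 among the normal livers.

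Among the activators, Clock was lower in tumors and Arntl was not called. Clock, the partner of ARNTL and a histone acetyltransferase, had expression values of 1.76, 1.75 and 2.08 in normal livers 1, 2 and 3 and of 1.06, 1.15 and 0.942 in tumors 1, 2 and 3. All 3 tumors lay below all 3 normal livers, and the tissues of a group stayed close together. The mean was 1.86 ± 0.187 (SD, n = 3) in normal livers and 1.05 ± 0.106 (SD, n = 3) in tumors, and the log2 fold change was -0.83 (SE 0.13, 95% interval -1.14 to -0.51, limma adjusted p = 0.00594). The call held with each tissue left out, at -0.90 to -0.74 and adjusted p of 0.0142 to 0.0217. It was lost when the arrays were scaled to the spike-in controls, with -0.63 and an adjusted p of 0.0795 by limma. That scaling moved the median of all tested probes from -0.13 to 0.07, and Clock stayed lower than that median under both.

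Arntl, the activator that every form of the loop needs, had values of 4.79, 5.74 and 4.04 in normal livers and of 1.43, 4.62 and 2.75 in tumors. Tumor 1 was the lowest of the 6 tissues, and tumor 2 lay above normal liver 3, so the groups overlapped. The log2 fold change of -0.87 (SE 0.41, 95% interval -1.85 to 0.11) did not pass the test, with a limma adjusted p of 0.150. Without tumor 2 the estimate was -1.27 and was called (limma adjusted p = 0.0382), and without tumor 1 it was -0.43 (adjusted p = 0.280). Npas2, which can stand in for CLOCK, was well above background in 1 normal liver and 1 tumor only. Its values were 0.197, 0.114 and 0.0695 in normal livers and 0.0476, 0.140 and 0.102 in tumors, and it was not tested.

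None of the Period genes, which encode repressors that carry much of the daily timing, was called. Per1 had values of 0.636, 0.667 and 1.58 in normal livers and of 7.28, 1.13 and 3.71 in tumors. Tumors 1 and 3 lay above every normal liver, while tumor 2 lay below normal liver 3. The log2 fold change of 1.84 (SE 0.71, 95% interval 0.14 to 3.53) had a limma adjusted p of 0.0907 and was not called. It was called without tumor 2, at 2.57 (limma adjusted p = 0.0202), and under spike-in scaling, at 2.03 (limma adjusted p = 0.0181). The second Per1 probe was too dim on all 6 arrays to be measured.

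Per2 had values of 0.205, 0.243 and 0.291 in normal livers and of 0.597, 0.123 and 0.273 in tumors. The tumors bracketed the normal livers, with tumor 1 the highest and tumor 2 the lowest of the 6 tissues. The log2 fold change was 0.16 (SE 0.53, 95% interval -1.12 to 1.44, limma adjusted p = 0.841), an interval that holds changes of more than 2-fold either way. Its sign turned without tumor 1 (-0.41) and under normexp background correction (-0.04). Per3, the third and, for the loop, most dispensable Period gene, was well above background in tumor 1 alone, at 0.230. It read 0.0348, 0.0261 and 0.0327 in normal livers and 0.0400 and 0.0731 in tumors 2 and 3, all not well above background, and no fold is given.

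The cryptochromes are the strongest repressors of the ARNTL and CLOCK pair, and neither was called. Cry1 was well above background in normal livers 1 and 2 (0.210 and 0.204) and in 0 of 3 tumors, where it read 0.0379, 0.0443 and 0.0430. Normal liver 3, at 0.102, was not well above background. Set against the lowest measurable signal of the tumor arrays, the mean of the normal livers gave a bound of 1.54-fold. That mean includes normal liver 3, which was not well above background, so the bound is not a firm minimum. It carries no test because the probe did not meet the filter. The promoter stretch of Cry1, printed above, was the only one with both an E-box and an E-prime box among the 13 windows.

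Cry2 had values of 10.4, 11.97 and 11.1 in normal livers and of 7.89, 5.77 and 9.16 in tumors. The groups did not overlap, yet the log2 fold change of -0.58 (SE 0.19, 95% interval -1.03 to -0.13) missed the threshold, with a limma adjusted p of 0.0546. Without tumor 3 it was called at -0.73 (limma adjusted p = 0.0328). Its second probe gave -0.07 (SE 0.34, limma adjusted p = 0.892) with overlapping groups, so the 2 probes of Cry2 did not show the same difference.

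Nr1d1, the REV-ERB alpha receptor that represses Arntl, had values of 0.791, 2.51 and 4.67 in normal livers and of 3.92, 2.27 and 4.56 in tumors. Normal liver 1 stood lowest of all 6 and normal liver 3 highest, so its spread was wider in normal livers than in tumors. The log2 fold change of 0.71 (SE 0.64, 95% interval -0.83 to 2.25, limma adjusted p = 0.433) was 0.004 without normal liver 1 and 1.29 without normal liver 3, and neither was called.

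Dbp, a PAR bZIP activator of liver metabolic genes and a direct target of ARNTL and CLOCK, had values of 1.69, 1.87 and 7.91 in normal livers and of 83.5, 4.92 and 28.2 in tumors. Tumors 1 and 3 stood above every normal liver, and tumor 2 lay below normal liver 3. The log2 fold change of 2.95 was the largest in size among the 7 clock genes, but its SE of 1.09 and 95% interval of 0.33 to 5.57 were wide and it was not called (limma adjusted p = 0.0813). The second probe gave 2.89 (SE 1.05, limma adjusted p = 0.0778) and ranked the 6 tissues in the same order. Without tumor 2 the estimate was 4.05 (limma adjusted p = 0.0221), without tumor 1 it was 2.01 (adjusted p = 0.174), under spike-in scaling 3.15 (adjusted p = 0.0163) and under normexp correction 2.85 (adjusted p = 0.0420). Whether Dbp passed the threshold thus changed with 1 tumor, with the scaling and with the background correction.

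**Figure D2:**
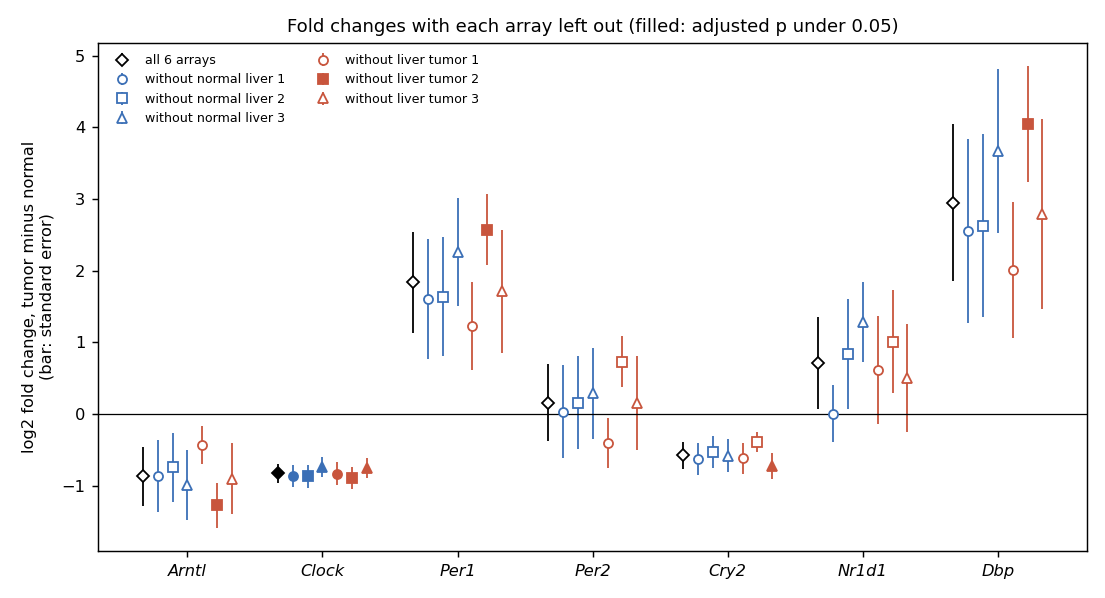
Log2 fold change (tumor over normal liver, bars show the SE) of the 7 tested clock genes with all 6 tissues (black) and with each normal liver (blue) or tumor (red) left out; filled symbols have a limma adjusted p under 0.05. Clock is filled throughout, while Arntl, Per1 and Dbp are filled only without tumor 2 and Cry2 only without tumor 3.

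The wide spread lay in some clock genes and not in others. Highest over lowest tumor came to 17.0-fold for Dbp, 6.45-fold for Per1, 4.84-fold for Per2 and 3.22-fold for Arntl, where the median over the 16482 genes above background on all arrays was 1.24-fold and their 95th percentile 2.10-fold. In normal livers the same ratio was 5.90-fold for Nr1d1, 4.67-fold for Dbp and 2.48-fold for Per1, against a median of 1.22-fold and a 95th percentile of 1.85-fold. Clock (1.19-fold in normal livers, 1.22-fold in tumors) and Cry2 (1.15-fold and 1.59-fold) stayed in the range of other genes. By the standard deviation within groups, Dbp exceeded 99.7% of tested genes, Per1 99.0%, Nr1d1 98.7%, Per2 97.6% and Arntl 94.95%, whereas Cry2 exceeded 64.2% and Clock 33.2%.

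The order of the tissues was shared by some of these genes. Among the tumors, Dbp, Per1 and Per2, 3 of the 7, ran highest in tumor 1, then tumor 3, then tumor 2. Nr1d1 ran highest in tumor 3, then tumor 1, then tumor 2, and Clock and Cry2 had other orders as well. Adding the other clock genes, 8 of 21 genes above background on all arrays had that order (Nr1d2, Tef, Hlf, Bhlhe40 and Fbxw11 besides), as did 16.4% of all 16482 genes. Order takes no account of size, and Fbxw11 ranged only 1.03-fold among the tumors, below the median of 1.24-fold over all genes. Arntl and Nfil3 were among the 3 of 21 with the reverse order, which 13.9% of all genes had. Among the normal livers, Dbp, Per1, Per2, Nr1d1 and Clock were highest in normal liver 3, as were 11 of the 21 and 37.2% of all genes, and Arntl was lowest there, with 34.2% of all genes. Both features together, tumor 1 over 3 over 2 and normal liver 3 highest, held for 7 of the 21 clock genes and 8.06% of all genes. The order counted here is that of Dbp, Per1 and Per2 and was set after the values had been seen. These 3 genes are themselves among the 8 and the 7 of 21, so the counts are no test of the order. These shares describe 6 tissues, and genes on the same arrays are not independent.

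**Figure D3:**
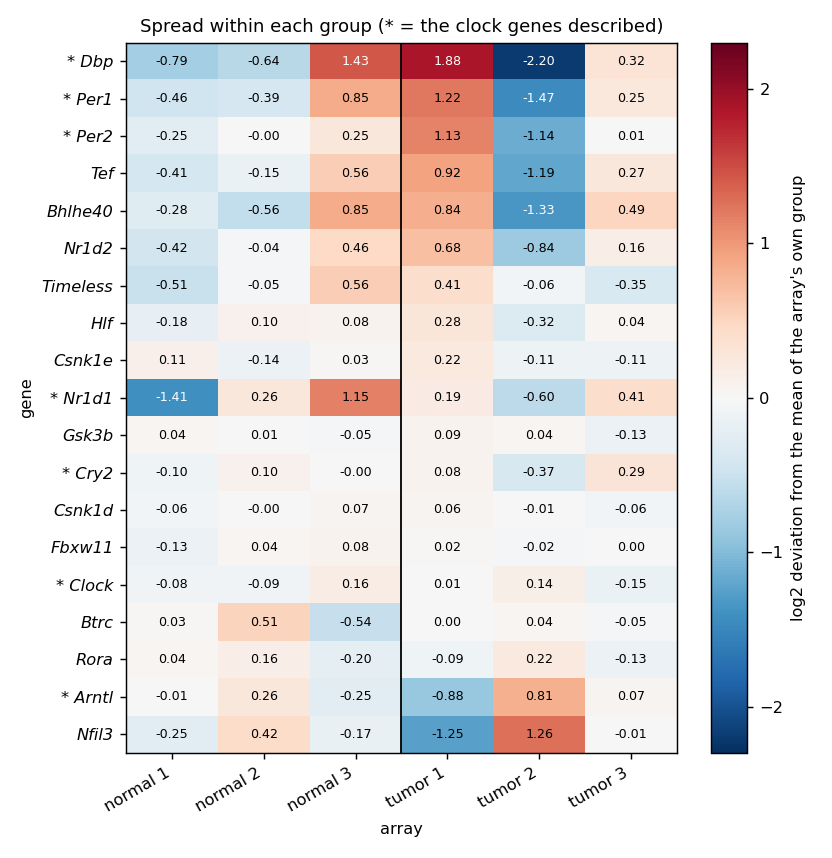
Log2 deviation of each array from the mean of its own group for clock genes above background on all 6 arrays (an asterisk marks the 7 tested clock genes described first), sorted by tumor 1. Dbp is 1.88 above the tumor mean in tumor 1 and far below it in tumor 2, and Arntl and Nfil3 at the bottom show the opposite signs.

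Genes that respond to heat, stress hormones or feeding were read beside this order. Normal liver 3, the normal liver with the most Dbp, Per1 and Nr1d1 RNA, was also the highest normal liver for all 5 heat-induced genes read. Of these 5, 4 had the tumor order of Dbp, among them Hsp90aa1, whose tumors 2 and 3 were almost level (25.77 and 25.80). Over all 7 temperature-responsive genes tested, 6 were highest in normal liver 3 and 5 had that tumor order, the cold-induced Rbm3 among both. Its dimmest probe was instead lowest in normal liver 3 (0.324, 0.273 and 0.221 in normal livers 1, 2 and 3). Cirbp, also cold-induced, ran the other way, at 11.3, 8.76 and 6.32 in normal livers and 5.25, 7.63 and 7.88 in tumors. Of all genes, 37.2% were highest in normal liver 3 and 16.4% had that tumor order. Hsph1 read 8.93, 8.26 and 18.8 in normal livers and 5.33, 3.01 and 4.005 in tumors. Hspa8 read 339, 340 and 525 in normal livers and 459, 283 and 362 in tumors, so both were highest where Dbp was highest among the normal livers and among the tumors. Of the 7 temperature-responsive genes tested, 3 were called, all lower in tumors (Hspa1a -1.48, Hsph1 -1.48 and Hsp90aa1 -0.57), against 34.2% of all genes called and 21.0% called lower. Hspa1a met the filter through the normal livers alone and was well above background in 2 of 3 tumors. Of 7 genes that glucocorticoids induce, 3 had the tumor order of Dbp, namely Tsc22d3 (11.6, 7.34 and 9.58 in tumors 1, 2 and 3), Fkbp5 (8.78, 6.47 and 6.78) and Zbtb16 (7.96, 5.84 and 7.38), and 5 were highest in normal liver 3. Of 7 fasted-state genes 2 had that tumor order, among them Cpt1a (86.9, 50.6 and 60.9), and 2 had the reverse, and of 4 fed-state genes 1 had it (Pnpla3, 3.33, 0.946 and 1.31) and 1 had the reverse. The second Pnpla3 probe did not have that order, at 2.01, 1.97 and 1.55 in tumors 1, 2 and 3. Neutrophil markers were mixed in tumor 1, where Dbp and Per1 were highest. S100a8 (3.37, 0.912 and 0.732 in tumors 1, 2 and 3) and S100a9 (12.9, 4.51 and 2.80) were highest there, Ly6g (1.10, 1.41 and 1.60) was lowest, and of the 2 Mpo probes 1 was well above background in tumor 1 alone and the other in no tissue. The 4 markers summed to 4.82 to 7.28 in normal livers and 5.18 to 17.4 in tumors, mostly from S100a9, and 0 of the 3 tested were called by limma (1 of them, Ly6g, at an unadjusted p under 0.05). The part of these in the clock values was not tested.

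Further clock genes were called about as often as genes at large. Of 19 such genes, 17 were tested, of which 3 were called higher and 4 lower, or 41.2%, against 34.2% of all genes. Among the nuclear receptors of the second loop, Rora, an activator of Arntl, had values of 7.05, 7.65 and 5.95 in normal livers and of 9.03, 11.2 and 8.81 in tumors. Every tumor lay above every normal liver, and it was called higher at 0.49 (SE 0.15, limma adjusted p = 0.0492), a call lost with any 1 tissue left out. Nr1d2, the second REV-ERB receptor, was not called at 0.35 (SE 0.41, limma adjusted p = 0.556).

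Among the D-box factors, Nfil3, the repressor that competes with DBP, had values of 24.0, 38.2 and 25.5 in normal livers and of 3.06, 17.5 and 7.27 in tumors. All tumors were lower, least so tumor 2, the tumor with the least Dbp. Its log2 fold change was -1.97 (SE 0.60, limma adjusted p = 0.0461), and the call was lost on leaving out any tissue but tumor 2, with adjusted p up to 0.130. Hlf, a PAR bZIP factor like DBP, fell by 1.03 (SE 0.18, limma adjusted p = 0.00794), from 5.52, 6.74 and 6.63 to 3.73, 2.47 and 3.15. Tef, the third of that family, was not called at -0.23 (SE 0.55, limma adjusted p = 0.779), with tumors from 11.4 to 49.6 around the normal livers at 23.0 to 45.1. Of the 3 PAR bZIP factors, Hlf alone was called.

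Of the remaining clock genes, Arntl2, a paralog of Arntl with little RNA in normal liver, read 0.108, 0.152 and 0.0727 in normal livers, where it was well above background in 1 of 3, and 1.35, 0.937 and 0.737 in tumors. It met the filter through the tumors alone, so its log2 difference of 3.21 (SE 0.33, limma adjusted p = 0.00139) is set against readings mostly near background, and it was 1.46 with normexp correction. Its other 2 probes were too dim to test. Timeless, whose protein acts chiefly in DNA replication in mammals, rose by 1.80 (SE 0.31, limma adjusted p = 0.00788), from 0.323, 0.446 and 0.681 to 2.14, 1.54 and 1.26. Usp2, a deubiquitinase of clock proteins, fell by 1.40 (SE 0.32, limma adjusted p = 0.0180) and was not well above background in 1 of 3 tumors. The kinases Csnk1d, Csnk1e and Gsk3b, which mark PER and CRY proteins for turnover, had log2 fold changes of -0.004, 0.18 and 0.10 and none was called, although a second Csnk1e probe was called at 0.50. The ubiquitin ligase genes Btrc and Fbxw11 (-0.20 and 0.18) and the repressors Bhlhe40 and Bhlhe41 (0.47 and -0.64) were not called by limma. Ciart, a repressor that follows the Per genes, was well above background in tumor 1 alone (0.208), like Per3, and with Fbxl21 was not tested.

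**Figure D4:**
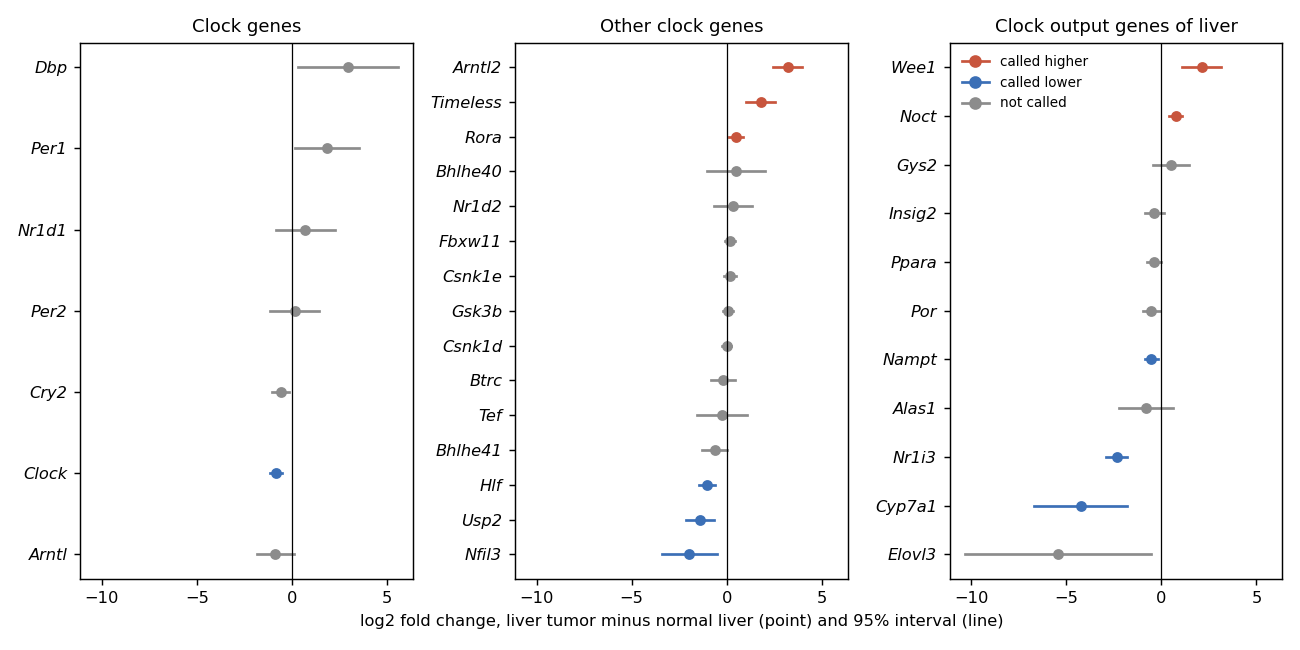
Log2 fold change of tumor over normal liver (point) with its 95% interval (line) for the tested clock genes (left), other clock genes (middle) and clock output genes of liver (right); red was called higher, blue lower and grey not called by limma. The intervals of Dbp, Per1 and Nr1d1 are several times as wide as those of Clock and Cry2.

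Liver genes that the clock is known to drive were mixed. Of the 11 with a probe, 2 were called higher and 3 lower, or 45.5%, against 34.2% of all genes (13.1% higher and 21.0% lower). Nr1i3, the CAR receptor and a target of the PAR bZIP factors, had values of 26.5, 27.2 and 26.2 in normal livers and of 3.65, 6.94 and 5.66 in tumors, so that the tumors lay far below a narrow normal range. Its log2 fold change was -2.35 (SE 0.23, limma adjusted p = 0.00131), and within the tumors it was lowest in tumor 1, where Dbp was highest. Cyp7a1, the rate-limiting enzyme of bile acid synthesis, fell by 4.25 (SE 1.02, limma adjusted p = 0.0218), from 4.27, 12.2 and 5.13 to 0.0877, 0.280 and 1.56, with tumor 1 not well above background. The estimate was -2.92 with normexp correction, and the call was lost on leaving out normal liver 2, normal liver 3 or tumor 2 (adjusted p of 0.0540 to 0.0709). Nampt, which makes the NAD precursor that ties metabolism to the clock, fell by 0.53 (SE 0.15, limma adjusted p = 0.0367) and was not called under spike-in scaling (-0.33, adjusted p = 0.319) or on leaving out any tissue but tumor 3.

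Wee1, a kinase that holds back mitosis and is driven through E-boxes, had values of 0.124, 0.285 and 0.0927 in normal livers and of 0.649, 0.496 and 0.820 in tumors. The tumors were all higher, but Wee1 was well above background in 1 of 3 normal livers only and met the filter through the tumors. Its log2 difference of 2.11 (SE 0.42, limma adjusted p = 0.0124) is thus set against readings near background, and it was 0.88 with normexp correction. Noct, a clock-controlled phosphatase, was called higher at 0.74 (limma adjusted p = 0.00867) by its brightest probe, while its second probe gave -0.65 (adjusted p = 0.299), so its direction depends on the probe. Elovl3, a fatty acid elongase with a strong daily rhythm in male liver, read 104, 84.6 and 44.4 in normal livers and 0.0468, 10.4 and 9.90 in tumors. All tumors were lower, and tumor 1 was not well above background, so that the estimate of -5.43 (SE 2.05, limma adjusted p = 0.0856, not called) rests in part on a reading that was not measurable. Without tumor 1 it was called at -2.85 (limma adjusted p = 0.00429). The remaining output genes, the heme synthesis enzyme gene Alas1 (-0.80), Por (-0.52), the glycogen synthase gene Gys2 (0.50), Insig2 (-0.37) and Ppara (-0.38), were not called by limma, and no probe was matched to Cyp2a5. Gys2 had the tumor order of Dbp, at 142, 46.4 and 62.8 in tumors 1, 2 and 3.

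Lists for cell types were read beside these results, against 34.2% of all genes called, 21.0% lower and 13.1% higher. All 5 macrophage markers were tested and 4 were called lower in tumors, and their summed level was 68.0 to 95.4 in normal livers and 34.7 to 44.0 in tumors. Of 5 stellate and fibroblast markers 3 were called lower and 1 higher (Col1a1), with sums of 80.1 to 99.1 and 22.2 to 42.0. Des, called lower, met the filter through the normal livers alone and was well above background in 2 of 3 tumors. Of 8 hepatocyte markers 1 was called lower (Cps1) and 1 higher (Apoa1), with sums of 7069 to 7657 and 7326 to 7808, and of 5 endothelial markers 1 was called lower (Stab2), with sums of 53.1 to 65.0 and 46.9 to 49.9. None of the tested cholangiocyte markers (3 tested) or lymphocyte markers (2 tested) was called by limma, with sums of 1.94 to 2.32 and 1.55 to 1.91 for the first and 6.37 to 8.25 and 6.44 to 8.39 for the second, and Cd8a stayed near background throughout. The part of the cell mix in the lower Clock and Hlf values was not tested.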

How the data were processed

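Total RNA of 3 normal livers and 3 liver tumors was hybridised by the authors to 1-colour SurePrint G3 Mouse GE arrays. The deposited intensity values are background-subtracted Feature Extraction output (version 10.7.3.1 by the file headers, 12.0.3.1 per the labels). A deposited table, used as an alternative, gives each signal as a ratio to its array's 75th percentile. Here log2 intensities were centred on that percentile, outlier spots were dropped and spots of a probe averaged. Tested probes, those above background in every tissue of a group, were fitted with limma 3.58.1 (R 4.3.3) and called at a Benjamini-Hochberg adjusted p under 0.05, two-sided. The fit was tested on simulated data. An exact permutation test of 3 against 3 cannot go below p = 0.1, and precision is limited by the number of arrays. Separate animals are not stated for the replicates, so p-values measure only the spread between these tissues, which may be technical. Tables and figures were made in Python 3.11.15 (pandas 2.3.3, scipy 1.17.1, numpy 2.4.6, matplotlib 3.10.9). Probe names came from RefSeq annotation of GRCm38.p6 by accession for 27235 probes, by symbol for 3581 and by synonym for 565, and 24300 kept the design name. The clock genes, gene lists and rules were chosen with earlier results of these data known. Any member of the clock lists could be named, as could called members of the other lists and cell type markers not above background. The 3 genes outside the lists closest to Dbp and to Arntl could be named too. Alb, S100a8, S100a9 and Ly6g were not called and are named outside this rule. The same holds for Hspa8, Rbm3, Cirbp and Zbtb16, which are named for their order. The order of the tissues was examined after the values had been seen. A few list members are counted in totals but not reported here by name. For a bound, the dim group takes, per array, its own signal or the lowest signal measured above background, whichever is higher. Alternatives were normexp correction (offset 50), quantile and spike-in scaling (8 probes), other filters, the deposited table, a replicate block, a variance trend, all probes of a gene averaged, each tissue left out, the t-test of the methods (paired by number, as their statistics section has it, and unpaired) and their criteria. Those criteria were joined here to an unadjusted p under 0.05 of the unpaired t-test.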

Additional observations from a re-analysis of the deposited data

How the results depend on the processing

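Over 16 settings each, the log2 fold changes of Arntl, Clock, Per1, Cry2, Nr1d1 and Dbp kept their sign. That of Per2 reversed to -0.038 with normexp correction and ran from -0.41 (without tumor 1) to 0.73 with a tissue left out. The count of clock genes called higher (0) became 1 with normexp correction, 2 with spike-in scaling, and 0 to 2 with a tissue left out. The count called lower (1) became 0 with spike-in scaling, with the paired t-test of the methods after Benjamini-Hochberg adjustment and with the criteria of the methods, and 2 with no filter on dim probes (Cry1 joining Clock), with the filter to all 6 arrays, with a variance trend and with the unpaired t-test at an unadjusted p, and it was 1 to 2 with a tissue left out. The cause of these shifts was not tested.

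Of the other clock genes and output genes, the 5 called higher became 3 with the stricter filter, 2 with the unpaired t-test after adjustment and with the criteria of the methods, and 0 with the paired t-test after adjustment. The 7 called lower became 3 with no filter and with the unpaired t-test after adjustment, and 0 with the paired one. Tef reversed to 0.053 without normal liver 3 and 0.37 without tumor 2, from a lowest value of -0.69. Csnk1d reversed to 0.11 with normexp correction, 0.19 with quantile and 0.19 with spike-in scaling and 0.034 with the mean of its probes, and ran from -0.035 to 0.030 with a tissue left out. Gsk3b reversed to -0.030 with the mean of its probes, and Btrc to 0.0012 with spike-in scaling, with -0.46 to 0.058 (without normal liver 2) with a tissue left out.

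Over all probes, 8238 calls became 5282 with spike-in scaling, 4674 with no filter, 5263 with the unpaired t-test after adjustment, 0 with the paired t-test after adjustment (7420 at an unadjusted p), 2038 with the criteria of the methods, and 4954 (without normal liver 2) to 7172 with a tissue left out. With the replicate number as a block 7020 probes were called, and of the clock genes and other lists the call of Usp2 was lost (adjusted p = 0.0542 by limma). Same-numbered tissues correlated in their deviations at 0.069, 0.132 and 0.051, and differently numbered tissues at -0.139 to 0.055. These values cannot decide whether tissues were paired, because they rest on 3 tissues in each group. The numbers were not taken as pairs because the sources used here state no pairs by number. Signal over background limits Npas2, Per3 and Cry1, whose log2 differences with no filter (-0.40, 1.502 and -1.97, limma adjusted p of 0.631, 0.196 and 0.0180) rest mostly on readings not well above background.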

Other observations

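Metabolic genes outside the clock lists differed between the groups in both directions. Of 7 fasted-state genes, Pck1, G6pc and Angptl4 were called lower in tumors (-1.37, -2.32 and -1.83) and Igfbp1 and Cpt1a higher (3.94 and 0.80). Of 4 fed-state genes, Srebf1 was called lower (-0.58) and Fasn and Pnpla3 higher (1.23 and 3.20). Pnpla3 met the filter through the tumors alone and was well above background in 2 of 3 normal livers. Its second probe, well above background in 1 of 3 normal livers, gave 4.78. Both Pnpla3 values are thus set in part against readings near background. Of 7 genes that glucocorticoids induce, Tsc22d3 and Tat were called lower (-1.12 and -1.43) and Fkbp5 higher (1.03). None of these metabolic and glucocorticoid lists moved in 1 direction only, and these calls, by limma at an adjusted p under 0.05, stand against 34.2% of all genes called.

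The genes outside the lists whose log2 values were most like those of Dbp over the 6 arrays, by Pearson correlation among 16400 genes, were Ndel1 (0.999), Slc20a1 (0.996) and Rrp1 (0.989). Slc20a1, a phosphate transporter, read 5.80, 6.71 and 11.6 in normal livers and 33.5, 10.5 and 19.1 in tumors, the order of Dbp in both groups. A correlation takes no account of the size of a change. Ndel1 ran only from 10.9 to 14.7 over the 6 arrays and Rrp1 from 30.8 to 35.8, far narrower ranges than that of Dbp. Those most like Arntl were Pnrc1 (0.995), Tuba1c (0.986) and an unnamed intergenic transcript (0.983). Pnrc1 read 14.2, 16.7 and 11.2 in normal livers and 5.14, 13.2 and 8.36 in tumors, again the order of Arntl in both groups. These 6 genes were the highest of 16400, each correlation rests on 6 arrays that share slide and tissue group, and they are given as a description.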
